A study of Bos taurus with 10 samples.

Results

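The genes described here are brakes and drivers of the step from G1 into DNA synthesis, with p53 and its inhibitor. They are 10 of the 21130 rows of a deposited expression table, taken by symbol: the inhibitors of cyclin-dependent kinases (CDKs) Cdkn2a, Cdkn2b, Cdkn1a and Cdkn1b, the cyclins Ccnd1, Ccnd2, Ccnd3 and Ccne1, and Trp53 and Mdm2. All 10 symbols were found, each in 1 row. All 10 genes stood at 1 FPKM or more in all 10 libraries, so none was lost to the filter on low values. FPKM is the number of sequenced fragments of a gene per length of transcript and per mapped fragments of the library.

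By their labels the libraries are total RNA from muscle of 24-month-old cattle. LN010 to LN016 are labelled MSTN+/- (1 copy of the myostatin gene changed, replicates 1 to 7), and LN018, LN019 and LN020 are labelled wild type (replicates 1, 2 and 3, numbered only in the order of their records). The labels name no breed, sex, kind of edit or number of animals, so the spread behind each p-value is that of libraries, and it may be technical. The rows do not match the labelled species: 19415 of them, and 9 of the 10 genes, are described as Mus musculus. None of the 10 gene identifiers (0) and none of their 16 transcript accessions (0) occurs in a RefSeq gene table of cattle. The groups are therefore only labels here, and no difference is assigned to the genotype or to muscle.

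Library totals lay between 402716 and 464418 FPKM, and relative depth, read from the steps between low values, between 1 and 1.2. Markers of skeletal muscle were near 0: the median of 15 such genes was 0.21 to 0.59 FPKM across LN010 to LN016 and 0.13 to 0.40 FPKM in wild type, and Ckm, the muscle creatine kinase gene, nowhere exceeded 1.07 FPKM. The 3 libraries labelled wild type differed from one another. The median of 15 pluripotency markers was 0.06 FPKM in LN018, 103 in LN019, 132 in LN020 and 2.26 to 23.9 across LN010 to LN016. Of the 15, 11 to 15 reached 1 FPKM across LN010 to LN016, 1 in LN018 and all 15 in LN019 and LN020. Not all followed the median: Pou5f1 was at 633 to 848 FPKM across LN010 to LN016, 0.38 in LN018, 346 in LN019 and 533 in LN020. Nanog was at 5.95 to 55.0, 0.91, 234 and 177 FPKM in the same order. The median of 15 fibroblast markers was 321 FPKM in LN018, 19.7 in LN019, 9.31 in LN020 and 127 to 278 across LN010 to LN016. Immune cell markers (8 genes) and endothelial markers (6 genes) had medians of at most 1.25 FPKM in every library. In bulk RNA, fewer cells of a type and less RNA per cell cannot be told apart, and the part that cell makeup plays in the differences below was not tested.

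D cyclins bind CDK4 and CDK6 in response to growth signals, and cyclin E1 binds CDK2. Together these kinases inactivate the RB proteins and release E2F factors, which opens DNA synthesis. The INK4 proteins, p16 from Cdkn2a and p15 from Cdkn2b, block CDK4 and CDK6, while p21 from Cdkn1a and p27 from Cdkn1b mainly restrain CDK2. Cdkn2a also encodes ARF in another reading frame. ARF inhibits MDM2, the ubiquitin ligase that removes p53, and p53 switches on Cdkn1a and Mdm2. When fibroblasts are reprogrammed to pluripotent cells, the locus of Cdkn2a and Cdkn2b and the p53 and p21 pathway are known barriers. Pluripotent mouse cells are known for a short G1 phase with high cyclin E.

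Of the 10 genes, 5 were higher and 2 lower in LN010 to LN016, and 3 did not pass the threshold. Cdkn2a, Cdkn1a, Ccnd1, Ccnd2 and Cdkn1b were higher, and Ccne1 and Trp53 were lower. The test was limma on log2(FPKM + 1) over 14047 genes, with a Benjamini-Hochberg adjusted p under 0.05. By the same rule 31.8% of all genes tested were higher and 12.8% lower, 44.6% in all. With median-of-ratios scaling 4 of the 10 were higher and 4 lower, beside 23.2% and 23.2% of all genes (3244 higher and 3234 lower in place of 4468 and 1800). Groups did not overlap for 4 of the 10 genes, Cdkn2a, Cdkn1a, Ccnd1 and Ccnd2, with each MSTN+/- library above each wild-type one. Over all genes tested this held for 25.2%, and the opposite for 6.86%, together 32.0%. With LN018 as the only wild-type library, the same 4 genes were higher and 0 lower, beside 33.7% and 10.8% of all genes (44.5% in all). That fit has 1 wild-type library, which is assumed to vary like LN010 to LN016, so its p-values here and below hold no spread among wild-type libraries. Without LN018, 6 were higher and 3 lower, beside 42.2% and 31.9% of all genes (74.1% in all). Without LN019, 4 were higher and 0 lower, beside 25.2% and 5.71% of all genes (31.0% in all). Without LN020 the counts were again 4 and 0, beside 24.8% and 5.7% of all genes (30.5% in all).

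**Figure D1:**
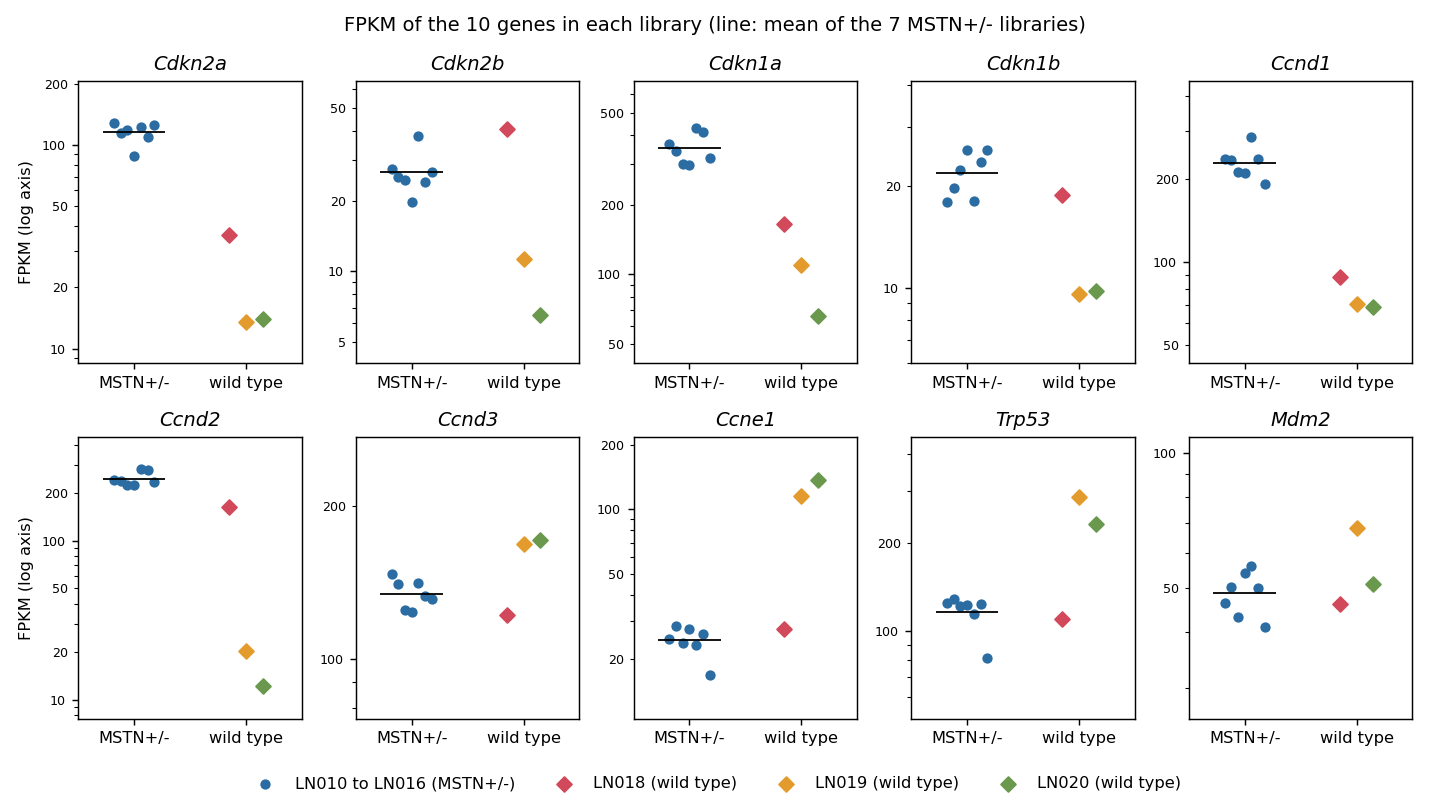
FPKM of each gene on a log axis, with 1 point per library: LN010 to LN016 in blue with their mean as a line, and the 3 wild-type libraries as diamonds. For Cdkn2a, Cdkn1a, Ccnd1 and Ccnd2 every blue point is above every diamond, and for the other 6 genes the groups overlap.

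Across LN010 to LN016 the order of levels was led by Cdkn1a, at 351 ± 52.7 FPKM (SD, n = 7). Ccnd2 at 246 ± 23.7 FPKM and Ccnd1 at 230 ± 29.4 FPKM followed. Their ratio within a library, Ccnd2 to Ccnd1, was 0.991 to 1.21 with a median of 1.06. Ccnd3, Trp53 and Cdkn2a came next at 134 ± 8.68, 117 ± 16.3 and 115 ± 13.8 FPKM, the last pair within 1 SD of each other. Mdm2 stood at 48.7 ± 5.52 FPKM. Cdkn2b, Ccne1 and Cdkn1b closed the order at 26.5 ± 5.57, 24.5 ± 3.86 and 21.8 ± 3.29 FPKM, each within 1 SD of its neighbour. In the wild-type group Trp53 came first at 209 ± 90.2 FPKM (SD, n = 3), then Ccnd3 at 154 ± 27.8 FPKM and Cdkn1a at 113 ± 49.2 FPKM, with wide spread. These means join libraries that differ: in LN018 the order was Cdkn1a (164 FPKM), Ccnd2 (162), Ccnd3 (122) and Trp53 (110), while Trp53 and then Ccnd3 led in LN019 and LN020. By rank among all rows of a library, Cdkn1a stood between place 140 and place 1177, and Ccnd3 between 388 and 505.

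Cdkn2a (gene 12578) was lowest at 88.1 FPKM, had its median at 118 and was highest at 129 across LN010 to LN016. LN018 held 36.1 FPKM, LN019 13.6 and LN020 14.0. The lowest MSTN+/- library was thus well above LN018, the highest of the wild-type libraries. The log2 change was 2.53 ± 0.26 (SE), with a limma adjusted p of 5.34e-05. Set against LN018 alone it was 1.64, and without LN018 it was 2.97. The row adds 2 transcripts, so messages for p16 and ARF cannot be separated.

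Cdkn2b (gene 12579), the neighbour of Cdkn2a in the same locus, did not follow it in every library. It was lowest at 19.8 FPKM, had its median at 25.3 and was highest at 37.9 across LN010 to LN016, while LN018 held 40.7 FPKM, LN019 11.3 and LN020 6.49. LN018 was thus the highest of all 10 libraries, and LN019 and LN020 were the lowest. The log2 change of 0.79 ± 0.42 (SE) did not pass the threshold (limma adjusted p = 0.149, 1.55e-04 to 0.641 over 19 alternatives). Without LN018 it was 1.49 and passed (1.55e-04), as it did with library weights (1.68, adjusted p = 0.00121), and with LN018 alone as wild type it was -0.62 (0.0714). Without LN020 it was 0.26 (0.641). The weights, estimated from the data, were 0.036 for LN018, 0.10 for LN019 and 0.90 for LN020, so that alternative nearly leaves LN018 out and is no separate support.

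The ratio of Cdkn2a to Cdkn2b within a library does not change when that library is rescaled. It was 3.23 to 4.80 with a median of 4.55 across LN010 to LN016, 0.886 in LN018, 1.20 in LN019 and 2.15 in LN020. The groups did not overlap. Cdkn2b was the more abundant of the pair in LN018 and the less abundant in the other 9 libraries.

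Cdkn1a (gene 12575), which encodes p21, was the most abundant of the 4 inhibitors in every library. It was lowest at 296 FPKM, had its median at 341 and was highest at 427 across LN010 to LN016, while LN018 held 164 FPKM, LN019 109 and LN020 66.1. No wild-type library reached the lowest of the MSTN+/- libraries. The log2 change was 1.70 ± 0.24 (SE), with a limma adjusted p of 3.69e-04. Set against LN018 alone it was 1.08 (0.00245, with the spread of LN010 to LN016 only).

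Cdkn1b (gene 12576), which encodes p27, varied less. It was lowest at 17.9 FPKM, had its median at 22.3 and was highest at 25.6 across LN010 to LN016, while LN018 held 18.9 FPKM, LN019 9.57 and LN020 9.75. LN018 lay within the MSTN+/- range, so the groups overlapped. The log2 change of 0.79 ± 0.21 (SE) passed the threshold (limma adjusted p = 0.0121, 7.41e-05 to 0.471 over 19 alternatives). The call was lost without LN019 (0.0662) or LN020 (0.0643), with median-of-ratios scaling (0.0550) and with LN018 as the only wild-type library (log2 change 0.19, adjusted p = 0.471). Summed over the 4 inhibitors, the level was 429 to 606 FPKM across LN010 to LN016, 260 in LN018, 144 in LN019 and 96.3 in LN020.

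The D cyclins did not move together. Ccnd1 (gene 12443) was lowest at 192 FPKM, had its median at 235 and was highest at 284 across LN010 to LN016, while LN018 held 88.4 FPKM, LN019 70.9 and LN020 68.9. The 3 wild-type values were close to one another and all below the MSTN+/- range. The log2 change was 1.58 ± 0.13 (SE), and its limma adjusted p of 1.25e-05 was the smallest among the 10 genes. Set against LN018 alone it was 1.36, and without LN018 it was 1.69.

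Ccnd2 (gene 12444) had the widest range of the 10 genes. It was lowest at 224 FPKM, had its median at 237 and was highest at 282 across LN010 to LN016, while LN018 held 162 FPKM, LN019 20.3 and LN020 12.2. The MSTN+/- median was 1.46 times the level of LN018, 11.7 times that of LN019 and 19.5 times that of LN020. The log2 change was 2.78 ± 0.60 (SE, limma adjusted p = 0.00433, 4.52e-08 to 0.0267 over 19 alternatives). Set against LN018 alone it was 0.59 (0.00809, with the spread of LN010 to LN016 only), and without LN018 it was 3.87.

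Ccnd3 (gene 12445) was nearly level. It was lowest at 124 FPKM, had its median at 133 and was highest at 147 across LN010 to LN016, while LN018 held 122 FPKM, LN019 169 and LN020 171. The highest library held 1.41 times the lowest, the smallest span among the 10 genes. The log2 change of -0.18 ± 0.12 (SE) did not pass the threshold (limma adjusted p = 0.238, 0.00293 to 0.620 over 19 alternatives). It passed without LN018 (-0.34, adjusted p = 0.00293) and with median-of-ratios scaling (-0.39, adjusted p = 0.0144). Set against LN018 alone it was 0.14 (0.337).

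As a share of the summed D cyclin FPKM, Ccnd1 held 34.5% to 40.2%, Ccnd2 38.6% to 42.8% and Ccnd3 19.9% to 23.6% across LN010 to LN016. In LN018 the shares were 23.8%, 43.5% and 32.7%. Ccnd3 held 64.9% in LN019 and 67.9% in LN020, and Ccnd2 only 7.81% and 4.82%. The share of Ccnd1 was below the MSTN+/- range in all 3 wild-type libraries and that of Ccnd3 above it. The share of Ccnd2 lay just above that range in LN018 and far below it in LN019 and LN020. The summed level was 556 to 706 FPKM across LN010 to LN016, 372 in LN018, 260 in LN019 and 252 in LN020.

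**Figure D2:**
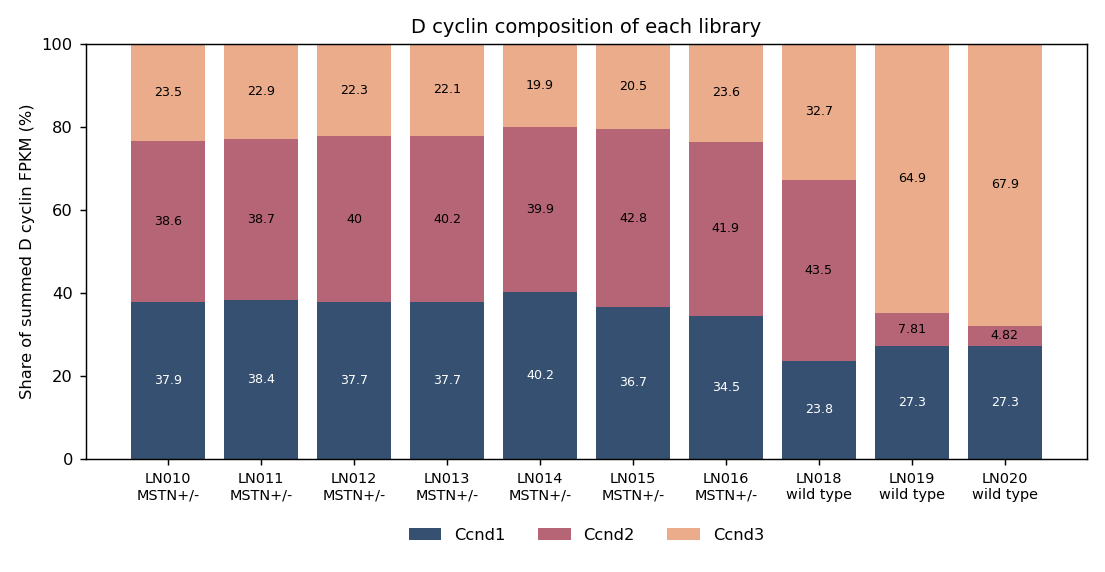
Share in percent of the summed FPKM of Ccnd1, Ccnd2 and Ccnd3 in each library, as stacked bars that add to 100%. LN010 to LN016 are alike, with Ccnd3 at 19.9% to 23.6%, while LN019 and LN020 consist mostly of Ccnd3, at 64.9% and 67.9%.

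Ccne1 (gene 12447), the cyclin of CDK2, had the largest decrease of the 10 genes. It was lowest at 16.9 FPKM, had its median at 24.8 and was highest at 28.6 across LN010 to LN016, while LN018 held 27.7 FPKM, LN019 115 and LN020 137. LN018 lay within the MSTN+/- range, and LN019 and LN020 were 4.65 and 5.51 times the MSTN+/- median. The log2 change was -1.62 ± 0.41 (SE, limma adjusted p = 0.00965, 1.18e-06 to 0.519 over 19 alternatives). The call was lost without LN019 (0.0552) or LN020 (0.0549) and with LN018 as the only wild-type library (-0.19, adjusted p = 0.519), and without LN018 the change was -2.33. The paralog Ccne2 was at 3.6 to 9.15 FPKM across LN010 to LN016, 9.71 in LN018, 7.69 in LN019 and 10.45 in LN020. The ratio of Ccne1 to Ccne2 was therefore 2.54 to 5.01 across LN010 to LN016, 2.85 in LN018, 15.01 in LN019 and 13.1 in LN020.

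Trp53 (gene 22059), which encodes p53, was lowest at 80.8 FPKM, had its median at 122 and was highest at 128 across LN010 to LN016, while LN018 held 110 FPKM, LN019 286 and LN020 231. LN018 lay inside the MSTN+/- range, and LN019 and LN020 were 2.34 and 1.88 times its median. The log2 change of -0.74 ± 0.26 (SE) was just past the threshold (limma adjusted p = 0.0409, 1.15e-04 to 0.813 over 19 alternatives). The call was lost without any 1 of LN010 to LN016 (0.0555 to 0.0649), without LN019 (-0.46, adjusted p = 0.209) or LN020 (0.158), and with no low-value filter (0.0558). Set against LN018 alone the change was 0.07 (0.813), and without LN018 it was -1.15 (1.15e-04). The strand used in counting is not given in the sources used here, and Trp53 overlaps the antisense gene Wrap53. Reads from the shared part may therefore not be told apart.

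Mdm2 (gene 17246), the ubiquitin ligase gene that p53 also activates, was lowest at 41.1 FPKM, had its median at 50.02 and was highest at 56.1 across LN010 to LN016. LN018 held 46.1 FPKM, LN019 68.0 and LN020 51.0, so LN019 alone lay outside the MSTN+/- range. The log2 change of -0.16 ± 0.14 (SE) did not pass the threshold (limma adjusted p = 0.371, 0.0372 to 0.998 over 19 alternatives). It passed in 1 alternative, median-of-ratios scaling (-0.37, adjusted p = 0.0372).

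The ratios of Cdkn1a and of Mdm2 to the p53 message were lowest in LN019 and LN020. Cdkn1a itself was lower there, at 109 and 66.1 FPKM beside 296 to 427 across LN010 to LN016. Mdm2 itself was not lower there, at 68.0 and 51.0 FPKM beside 41.1 to 56.1 across LN010 to LN016. Trp53 was higher there, at 286 and 231 FPKM beside 80.8 to 128. The ratio of Cdkn1a to Trp53 was 2.42 to 3.92 across LN010 to LN016, 1.496 in LN018, 0.382 in LN019 and 0.287 in LN020. The ratio of Mdm2 to Trp53 was 0.355 to 0.508 across LN010 to LN016, 0.419 in LN018, 0.237 in LN019 and 0.221 in LN020. The first ratio separated the groups. The second did not, since LN018 lay within the MSTN+/- range. These are ratios of messages and say nothing of p53 protein.

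**Figure D3:**
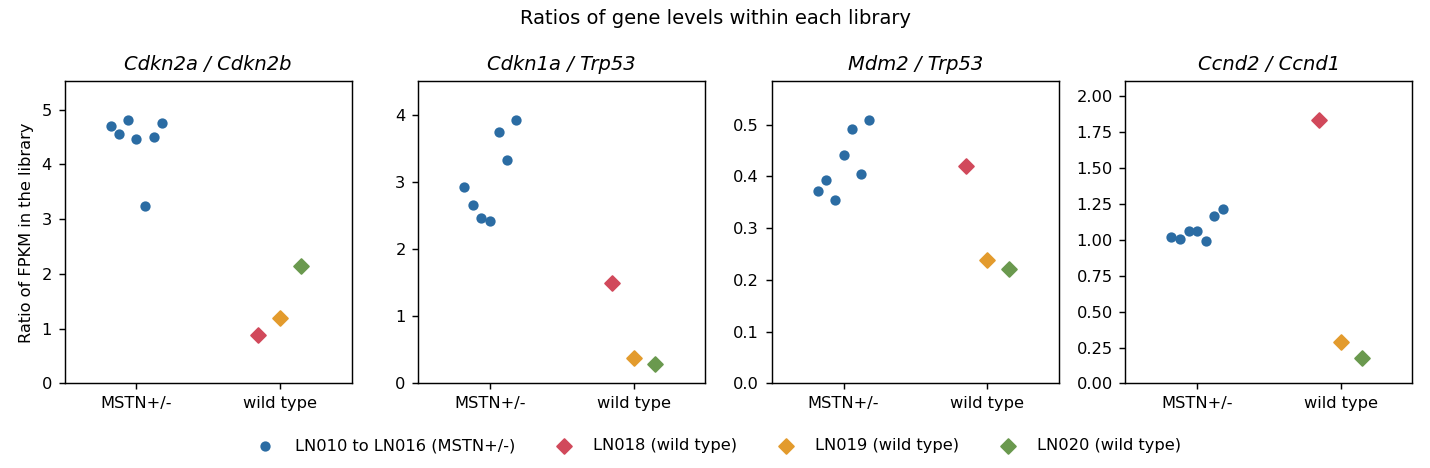
Ratio of FPKM between pairs of genes within each library on a linear axis from 0, with LN010 to LN016 in blue and the 3 wild-type libraries as diamonds. Cdkn2a to Cdkn2b and Cdkn1a to Trp53 separate the groups, and the ratio of Ccnd2 to Ccnd1 is highest in LN018, at 1.83, and lowest in LN019 and LN020.

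For Cdkn2a, Cdkn1a, Ccnd1 and Ccnd2 the direction and the call held in the 18 alternatives that keep more than 1 wild-type library, and the direction also held against LN018 alone. Over all 19, their log2 changes ran from 1.64 to 2.97, from 1.08 to 2.29, from 1.36 to 1.72 and from 0.59 to 4.04. Cdkn2b, Ccnd3, Trp53 and Mdm2 changed sign with LN018 as the only wild-type library, and none of these 4 passed the threshold there.

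**Figure D4:**
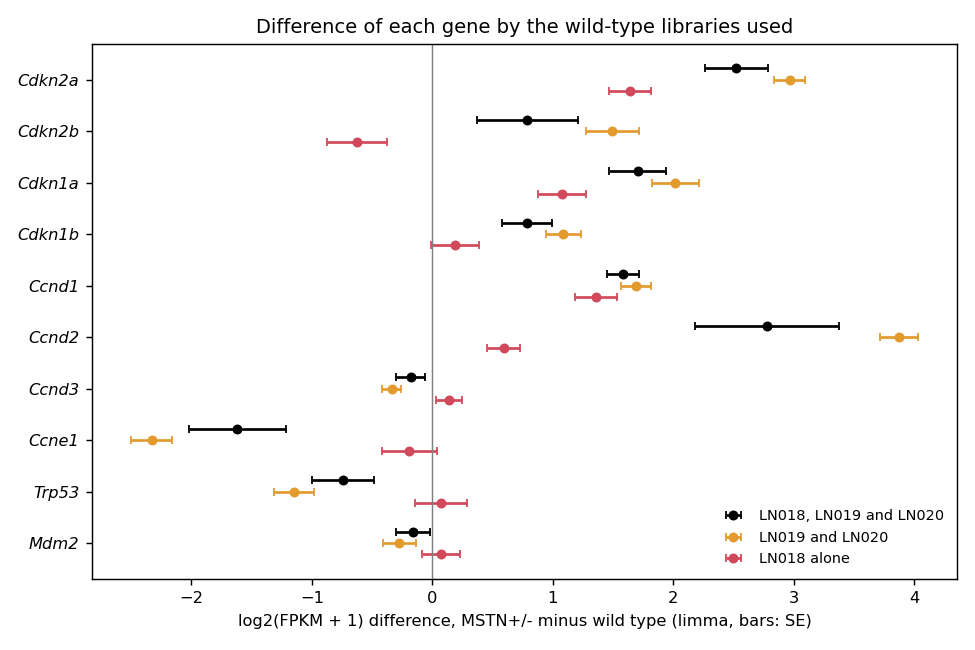
Difference in log2(FPKM + 1) between MSTN+/- and wild-type libraries for each gene, with its standard error, from fits with all 3 wild-type libraries, with LN019 and LN020, and with LN018. The estimates for Ccnd1 lie close together, from 1.36 to 1.69, and those for Ccnd2 lie between 0.59 and 3.87.

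Genes with profiles like these were sought by the mean absolute difference of centred log2(FPKM + 1) over the 10 libraries, among 13602 other genes. Closest to Ccnd2 were Lama4 (0.116), Lhfp (0.152) and Emp3 (0.155). Lama4, a laminin chain gene, was at 57.0 to 92.3 FPKM across LN010 to LN016, 40.1 in LN018, 4.51 in LN019 and 3.19 in LN020. Closest to Cdkn2a were Prickle2 (0.127), Tmem176a (0.150) and 2200002D01Rik (0.150), with Tmem176a at 80.4 to 108 FPKM across LN010 to LN016, 33.9 in LN018, 10.9 in LN019 and 7.05 in LN020. Closest to Ccne1 were Fkbp5 (0.0833), Gart (0.104) and Blm (0.105). Gart, an enzyme gene of purine synthesis, was at 23.0 to 46.1 FPKM across LN010 to LN016, 34.7 in LN018, 161 in LN019 and 174 in LN020. Closest to Cdkn1a were Spata6 (0.0823), 1600014C10Rik (0.106) and Ndrg4 (0.120).

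The rest of the pathway was followed in 7 lists with 98 genes in all, and the median log2 change of each list stands beside 0.17 for all genes tested. Of 7 other CDK inhibitors and RB family genes, all tested, 5 were higher and none lower (0), with a median of 1.22, beside 31.8% and 12.8% of all genes. The higher count was 3 without LN019, 2 without LN020 and 3 with median-of-ratios scaling, beside 25.2%, 24.8% and 23.2% of all genes. Rb1, the retinoblastoma gene whose product the D cyclin kinases inactivate, was at 18.3 to 25.8 FPKM across LN010 to LN016, 5.44 in LN018, 5.56 in LN019 and 4.0 in LN020. Its log2 change of 1.86 ± 0.14 (SE, limma adjusted p = 6.01e-06) held in all 19 alternatives. Cdkn1c, which encodes the inhibitor p57, was at 26.4 to 52.3 FPKM across LN010 to LN016, 43.8 in LN018, 4.09 in LN019 and 3.34 in LN020, and Cdkn2d, an INK4 gene, was at 8.13 to 11.7, 8.79, 5.99 and 4.44. Both were higher (limma adjusted p of 0.0302 and 0.0118). Cdkn1c missed the threshold in 7 of 19 alternatives, among them without LN019 (0.149), LN020 (0.158), LN010 (0.0540), LN011 (0.0502) or LN016 (0.0502). Cdkn2d missed it in 4, among them without LN020 (0.0599). The INK4 gene Cdkn2c, named after its values were seen, was higher too (limma adjusted p = 0.0187), at 6.37 to 11.6 FPKM across LN010 to LN016, 10.2 in LN018, 0.44 in LN019 and 0.72 in LN020, but not without LN019 (0.103) or LN020 (0.0983). With LN018 as the only wild-type library, the median of the 7 genes was -0.08, beside 0.26 over all genes.

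Of 15 CDKs, other cyclins and activators, 14 were tested, of which 2 were higher and 8 lower (median -0.65), beside 31.8% and 12.8% of all genes. The lower count was 3 without LN019 and 3 without LN020, beside 5.71% and 5.7% of all genes. Cdk4, the kinase partner of the D cyclins, was at 230 to 299 FPKM across LN010 to LN016, 323 in LN018, 313 in LN019 and 307 in LN020. Its groups did not overlap, yet its log2 change of -0.22 did not pass the threshold (limma adjusted p = 0.0899), except with median-of-ratios scaling (0.00734) and TPM rescaling (0.0470). The mitotic cyclin gene Ccnb1 was at 19.1 to 48.6 FPKM across LN010 to LN016, 44.0 in LN018, 148 in LN019 and 163 in LN020. Ccna2, the gene of cyclin A2, was at 19.8 to 45.3 FPKM across LN010 to LN016, 54.7 in LN018, 94.0 in LN019 and 105 in LN020. Both were lower (limma adjusted p of 0.0117 and 0.00848), Ccnb1 not without LN019 (0.0642) or LN020 (0.0668). Against LN018 alone, the median of the 14 was -0.28 in place of -0.65, beside 0.26 over all genes. The log2 changes of the 8 lower genes were then smaller in size, from -0.54 to -0.02. With all wild-type libraries they ran from -1.49 to -0.53.

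The median of 10 markers of proliferating cells was 17.2 to 42.1 FPKM across LN010 to LN016, 50.7 in LN018, 105 in LN019 and 118 in LN020, and all 10 were at 1 FPKM or more in every library. Mki67, the gene of the Ki-67 antigen, was at 13.7 to 33.8 FPKM across LN010 to LN016, 44.7 in LN018, 39 in LN019 and 48.1 in LN020. Its groups did not overlap, yet its log2 change of -0.64 did not pass the threshold (limma adjusted p = 0.0580), and LN019 lay below LN018. It passed in 3 of 19 alternatives, among them median-of-ratios scaling (0.0185) and TPM rescaling (0.0489). The part of proliferation in the differences of the 10 genes was not tested.

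Of 6 genes for the ubiquitin ligases that remove p27 and cyclin E, all tested, none was higher (0) and 3 were lower. The median was -0.31, and the counts stand beside 31.8% and 12.8% of all genes. The lower count was 2 to 4 when 1 library was left out. It was 4 without LN018, beside 31.9% of all genes, and 2 without LN019 or LN020, beside 5.71% and 5.7%. Against LN018 alone the median was 0.18, beside 0.26 over all genes. Cks1b, a cofactor in p27 turnover, was at 40.1 to 59.0 FPKM across LN010 to LN016, 95.6 in LN018, 109 in LN019 and 112 in LN020. Its log2 change of -1.02 ± 0.13 (SE, limma adjusted p = 2.32e-04) held in all 19 alternatives. The ligase core genes Skp1a and Rbx1 did not pass the threshold (limma adjusted p of 0.420 and 0.0570). Skp1a was at 103 to 145 FPKM across LN010 to LN016, 74.5 in LN018, 261 in LN019 and 219 in LN020. It was lower without LN018 (8.52e-05) or with library weights (0.00766) and higher with LN018 as the only wild-type library (0.00308). Rbx1 was at 37.2 to 46.9 FPKM across LN010 to LN016, 30.6 in LN018, 35.7 in LN019 and 37.3 in LN020, and passed without LN016 (0.0449), with quantile normalization (0.0331) and against LN018 alone (0.0186).

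Of 10 E2F and DP factor genes, all tested, 2 were higher and 4 lower (median -0.45), beside 31.8% and 12.8% of all genes. The lower count was 7 with median-of-ratios scaling, TPM rescaling, library weights or without LN018, and 2 without LN019 or LN020. Of all genes, 23.2% were lower with median-of-ratios scaling, 31.9% without LN018, 5.71% without LN019 and 5.7% without LN020. With TPM rescaling 2317 of 15508 genes were lower, and with library weights 3368 of 14047. E2f4, which encodes a mainly repressive E2F, was at 33.7 to 46.1 FPKM across LN010 to LN016, 39.6 in LN018, 112 in LN019 and 122 in LN020. It was lower (limma adjusted p = 0.0177), but not without LN019 (0.0939) or LN020 (0.0974). Tfdp1, the gene of the common E2F partner DP1, was at 51.5 to 75.4 FPKM across LN010 to LN016, 65.8 in LN018, 90.2 in LN019 and 109 in LN020. E2f1, an activating E2F, was at 12.4 to 21.2, 14.5, 23.6 and 29.7 FPKM in the same order. Neither passed the threshold (limma adjusted p of 0.101 and 0.0839), except without LN018 (0.00449 and 0.00227), for E2f1 without LN013 (0.0478), and under 3 and 4 other settings.

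Of 28 other p53 targets, all tested, 12 were higher and 3 lower (median 0.37), beside 31.8% and 12.8% of all genes. Without LN018, 14 were higher and 7 lower with a median of 0.18, beside 42.2% and 31.9% of all genes. Against LN018 alone the median was 0.37, beside 0.26 over all genes. With median-of-ratios scaling the counts were 7 and 5, beside 23.2% and 23.2% of all genes. With quantile normalization they were 10 and 7, beside 3067 and 3521 of 13929 genes. They were 9 and 1 without LN019, beside 25.2% and 5.71%, and 9 and 3 without LN020, beside 24.8% and 5.7%. Phlda3, an inhibitor of AKT signalling, was higher, at 109 to 166 FPKM across LN010 to LN016, 99.7 in LN018, 46.4 in LN019 and 33.2 in LN020 (log2 change 1.30, limma adjusted p = 0.00435, but 0.132 against LN018 alone). Ccng1, the gene of cyclin G1, was at 119 to 197 FPKM across LN010 to LN016, 172 in LN018, 93.3 in LN019 and 67.1 in LN020, and did not pass the threshold (0.0703) unless LN018 was left out (0.00109) or under 2 other settings. Bax, a cell death gene, was at 100 to 152 FPKM across LN010 to LN016, 120 in LN018, 159 in LN019 and 139 in LN020, and did not pass either (0.710). The 3 lower genes, named after their values were seen, were Gadd45a, Plk3 and Sesn2. Their log2 changes were -1.50, -1.41 and -0.62 (limma adjusted p of 0.0115, 0.00743 and 0.0489). Gadd45a did not pass without LN019 (0.0630) or LN020 (0.0648), and neither did Sesn2 (0.185 and 0.242). Plk3 passed without either (0.0442 and 0.0436). The widest increases of the list, also named after their values were seen, were those of Fas and Perp. Fas, a death receptor gene, was at 18.9 to 30.8 FPKM across LN010 to LN016, 4.18 in LN018, 3.06 in LN019 and 1.55 in LN020 (log2 change 2.63, limma adjusted p = 9.21e-06). Perp, a gene for a protein of desmosomes, was at 45.4 to 77.6 FPKM across LN010 to LN016, 4.60 in LN018, 17.97 in LN019 and 14.8 in LN020 (log2 change 2.39, limma adjusted p = 3.03e-04). Both calls held in all 19 alternatives.

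Of 17 p53 family members and regulators, 16 were tested, of which 2 were higher and 5 lower (median -0.32), beside 31.8% and 12.8% of all genes. The 2 higher genes, named after their values were seen, were Rchy1 and Trp63. Trp63 was near the filter, at 0.63 to 1.31 FPKM across LN010 to LN016, 0.06 in LN018, 0.06 in LN019 and 0 in LN020. It was tested only because LN012, LN014 and LN016 reached 1 FPKM. The lower count was 0 without LN019 or LN020, beside 5.71% and 5.7% of all genes. It was 11 without LN018, beside 31.9%. The higher count was 0 with median-of-ratios scaling, beside 23.2%, and 0 with quantile normalization, beside 3067 of 13929 genes. Under both settings only 15 genes were tested and Trp63 was not among them. Rchy1 was tested and did not pass (limma adjusted p of 0.206 and 0.0521). Npm1, a nucleolar protein gene, was at 585 to 908 FPKM across LN010 to LN016, 675 in LN018, 1989 in LN019 and 1949 in LN020. It was lower (limma adjusted p = 0.0455), but in 8 of 19 alternatives only, and not without any 1 library other than LN018. The ribosomal protein genes Rpl11 and Rpl5, whose products bind MDM2, did not pass the threshold (limma adjusted p of 0.505 and 0.977). Against LN018 alone both changes were positive (0.69 and 0.51, adjusted p of 0.00139 and 0.00347, with the spread of LN010 to LN016 only), and without LN018 Rpl5 was lower (0.0158). With LN018 as the only wild-type library the median of the 16 was 0.38, beside 0.26 over all genes.

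Of 15 genes known to regulate the locus of Cdkn2a and Cdkn2b, all tested, 5 were higher and 4 lower (median 0.10), beside 31.8% and 12.8% of all genes, so the higher share is near that of all genes. The lower count was 0 without LN019 and 1 without LN020, beside 5.71% and 5.7% of all genes. The higher count was 3 without LN019 and 3 without LN020, beside 25.2% and 24.8%. Id1, a repressor of p16 expression, was at 40.7 to 63.4 FPKM across LN010 to LN016, 25.4 in LN018, 9.0 in LN019 and 8.62 in LN020. Its log2 change of 1.94 (limma adjusted p = 6.29e-04) held in all 19 alternatives. Twist1, a mesenchymal transcription factor gene, was at 29.6 to 76.7 FPKM across LN010 to LN016, 58.7 in LN018, 4.18 in LN019 and 5.35 in LN020. It was higher (limma adjusted p = 0.0392), but in 7 of 19 alternatives only, and not without any 1 library other than LN013 and LN018. Hmga2, a chromatin protein gene, was at 14.1 to 21.8 FPKM across LN010 to LN016, 212 in LN018, 37.4 in LN019 and 17.1 in LN020. It did not pass (limma adjusted p = 0.0581) unless LN020 was left out (0.00769), with median-of-ratios scaling (0.0413) or with LN018 as the only wild-type library (1.88e-06).

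The Polycomb genes Bmi1, Cbx8, Cbx7 and Ezh2, also regulators of the locus, were named after their values were seen, and they did not share 1 direction. Bmi1 was higher (log2 change 1.16, limma adjusted p = 0.0199), at 10.8 to 14.7 FPKM across LN010 to LN016, 13.2 in LN018, 3.32 in LN019 and 2.67 in LN020, but not without LN019 (0.101) or LN020 (0.108). Cbx8 was higher too (log2 change 1.37, limma adjusted p = 6.38e-04), at 3.68 to 5.72 FPKM across LN010 to LN016, 2.36 in LN018, 0.86 in LN019 and 0.71 in LN020. Cbx7 was at 3.87 to 18.9 FPKM across LN010 to LN016, 0.38 in LN018, 60.1 in LN019 and 66.5 in LN020. It did not pass the threshold (limma adjusted p = 0.514), was lower without LN018 (log2 change -2.71, adjusted p = 2.33e-04) or with library weights (0.0147) and higher with LN018 as the only wild-type library (2.83, adjusted p = 0.00483). Ezh2 was at 9.09 to 26.9 FPKM across LN010 to LN016, 16.4 in LN018, 57.7 in LN019 and 68.7 in LN020. It was lower (limma adjusted p = 0.0450), but in 9 of 19 alternatives only, and not without any 1 library other than LN013 and LN018.

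**Figure D5:**
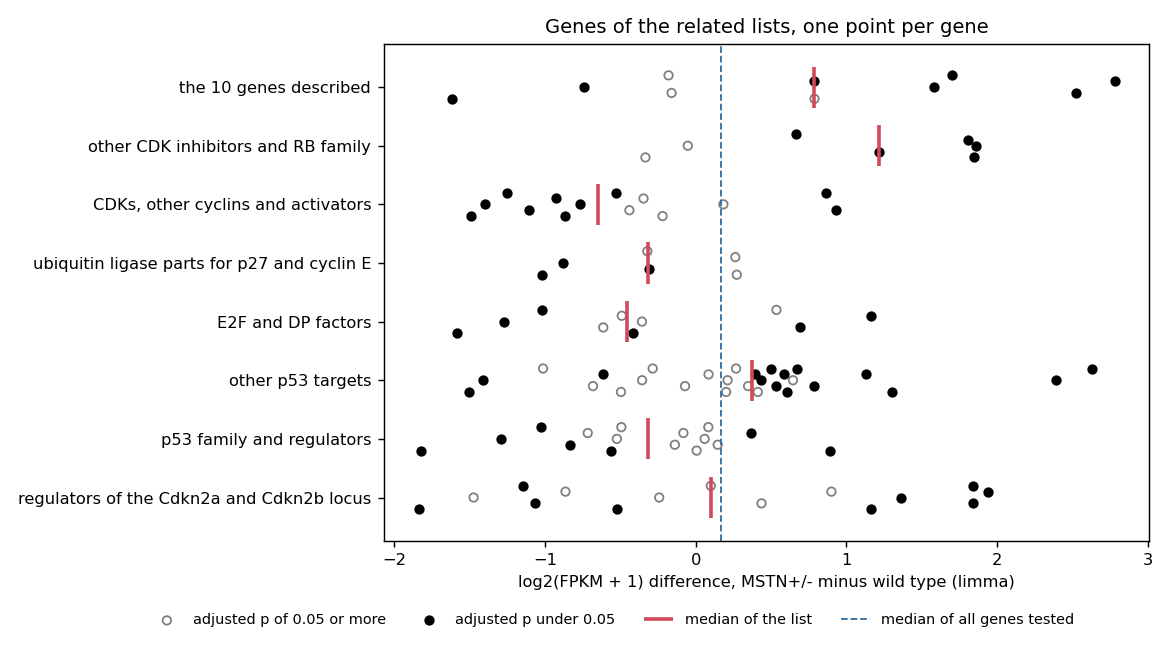
Difference in log2(FPKM + 1) for each tested gene of the 7 lists and for the 10 genes described, with filled points past an adjusted p of 0.05, a red line at the median of each list and a dashed line at the median of all genes tested, 0.17. The list of other CDK inhibitors and RB genes has the highest median, 1.22, and that of CDKs and other cyclins the lowest, -0.65.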

How the data were processed

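The deposited table gives 1 FPKM value with 2 decimals per gene and library (per the file headers). How the authors aligned and counted, with which build and filters, is not given in the sources used here. Columns were tied to libraries by title, groups come from the genotype label, and 0 columns of per-library values were left unused. A linear model with 8 residual degrees of freedom was fitted to log2(FPKM + 1) in limma 3.58.1 (R 4.3.3, empirical Bayes with a trend). It took the 14047 genes that reached 1 FPKM in 3 libraries or more. P-values were adjusted over all genes tested by the Benjamini-Hochberg method, at 0.05. A log2 change is MSTN+/- minus wild type. The added 1 makes changes of low genes look smaller than they are. Count models were not used, since FPKM is no count. Total depth is unknown, and relative depth came from steps in values of low genes (listed at 0 in at least 4 libraries), searched within a 4-fold range either way of LN010. Figures were drawn with matplotlib 3.10.9.

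The 10 genes and all lists were chosen with earlier results of these data known. From each of the 7 pathway lists the 3 genes with the highest mean FPKM were named. For the 4 of the 10 genes with the widest range, the 3 nearest profiles were named. Genes outside that rule are said to be named after their values were seen. The 19 alternatives were 3 scalings, 1 other pseudocount, 2 other filters, robust empirical Bayes, library weights, leaving out each of 10 libraries, and LN018 as the only wild-type library.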

Additional observations from a re-analysis of the deposited data

Results flagged for a closer look

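Among LN010 to LN016, single libraries stood apart by Dixon's test (95% critical value for 7 samples) in 12 of 67 quantities tested, where chance gives about 1 in 20. Most of these quantities are not independent of one another.

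LN016 stood low in Trp53, at 80.84 FPKM with the next library at 114 FPKM. It also stood low in the cell-cycle genes Ccnb1 (19.14 FPKM, next 36.1), Ccna2 (19.83, next 35.5) and Mki67 (13.67, next 26.5) and in Skp1a (103.28, next 128), and high in Lhfp (88.44, next 76.5). LN014 stood high in Cdkn2b, at 37.88 FPKM with the next library at 27.4 FPKM, in Twist1 (76.68, next 47.4) and in Fas (30.83, next 22.96), and its ratio of Cdkn2a to Cdkn2b was low, at 3.23 with the next library at 4.46. LN013 stood high in E2f1 (21.16 FPKM, next 16.1) and low in Prickle2 (8.76, next 10.3).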

How the results depend on the processing

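No paired analysis was possible because the labels tie no MSTN+/- library to a wild-type library. Of the 10 genes, 4 were lower with median-of-ratios scaling (Ccnd3, Ccne1, Trp53 and Mdm2), beside 3234 of 13958 genes. With no low-value filter 1 was lower, beside 1808 of 21014 genes. When 1 library was left out 0 to 3 were lower, beside 791 to 4449 of all genes. Groups did not overlap for 7 genes with median-of-ratios scaling and for 4 to 9 when 1 library was left out (9 without LN018). Over all genes the share without overlap was 34.1% with that scaling, 73.9% without LN018 and 32.4% to 35.2% without any other 1 library. Over all genes, 3234 were lower with median-of-ratios scaling, 3521 with quantile normalization and 3368 with library weights, in place of 1800, and 791 (without LN020) to 4449 (without LN018) when 1 library was left out. Higher and lower calls split 3244 to 3234 and 3067 to 3521 under the first pair of these settings, in place of 4468 to 1800. The median change of all genes moved from 0.17 as deposited to -0.01 and -0.06.

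With LN018 as the only wild-type library the log2 change turned its sign for Cdkn2b (-0.62), Ccnd3 (0.14), Trp53 (0.070), Mdm2 (0.072), Cdkn1c (-0.32), Cdkn2c (-0.076), Skp1a (0.79), Tfdp1 (0.032), E2f4 (0.0056), E2f1 (0.062), Ccng1 (-0.093), Bax (0.14), Npm1 (0.20), Twist1 (-0.41), Bmi1 (-0.061), Cbx7 (2.83) and Ezh2 (0.11). Rpl11 turned with median-of-ratios scaling (-0.069) and library weights (-0.19), and Rpl5 with these (-0.21 and -0.28), TPM rescaling (-0.053) and quantile normalization (-0.12). Bax turned with quantile normalization (0.026). When 1 library was left out, Skp1a ran from -0.88 to 0.021, Bax from -0.18 to 0.029, Rpl11 from -0.13 to 0.33, Rpl5 from -0.24 to 0.17 and Cbx7 from -2.71 to 0.094. Beyond the differences among LN018, LN019 and LN020, the cause was not tested. FPKM without counts gives no interval for single values.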
